A study of Mus musculus with 18 samples.

Results

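Endothelial knockouts of Twist and of Snail were set against each other in the obstructed kidney, with 3 whole-kidney libraries of the first and 3 of the second, which are 6 of the 18 samples of the series. The groups were taken from the sample labels, and every gene of the raw count table that passed the count filter (21050 genes) was tested. In the series, mouse kidneys were profiled by whole-transcriptome RNA-seq after unilateral ureteral obstruction (UUO), in which 1 ureter is tied and the kidney above it becomes inflamed and scarred, or without obstruction. The other 12 libraries were WT UUO kidneys, UUO kidneys with Myc removed by GGT-Cre, contralateral kidneys and healthy kidneys.

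Both knockout groups carried Cdh5-CreERT2, an inducible Cre that is active in cells using the vascular endothelial cadherin promoter. The Twist cKO UUO mice were Cre-positive with floxed Twist alleles (+ FF), and their mixed background held C57BL6, 129sv and Balb/c. The Snail cKO UUO mice were Cre-positive with floxed Snail alleles (+ FF), and theirs held C57BL6 and Balb/c. All were 12 weeks old at the endpoint. The WT UUO group, on the same strain mix as the Twist line, held 2 Cre-positive mice labelled ++ and 1 Cre-negative mouse with floxed Twist alleles, also 12 weeks old. The Myc cKO UUO mice shared the strain mix of the Snail line and were 11 to 12 weeks old, and the contralateral and healthy kidneys came from the Twist line at 12 weeks. The contralateral group held 2 Cre-positive ++ mice and 1 Cre-negative mouse with floxed Twist alleles, and all 3 healthy mice were Cre-negative with floxed Twist alleles (- FF). The 129sv contribution was therefore present in every mouse of one knockout group and absent from the labels of the other, so strain and knockout cannot be told apart. RNA came from a piece of whole kidney, so a loss confined to endothelial cells is diluted by tubular and interstitial RNA, and fewer cells of a type cannot be told apart from less RNA per cell. Nothing in the labels says whether kidneys shared a litter or a batch, and p-values measure the spread between these libraries.

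Twist1 is a basic helix-loop-helix factor and Snai1 a zinc-finger factor. Both bind short E-box sequences, and both are known for switching cells from an epithelial or endothelial state to a mesenchymal one, in part by repressing cadherin genes. In kidney fibrosis, endothelial-to-mesenchymal transition is studied as a process by which capillary cells lose junctions and take up matrix and contractile genes. The comparison asks how far the obstructed kidney differs according to which of the pair was removed.

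The 6 libraries held between 52637555 and 73891347 counts. Mitochondrial ribosomal RNA took 24.1% to 29.9% of the counts in Twist cKO UUO libraries and 23.7% to 26.0% in Snail cKO UUO libraries. Ddx3y, a Y-linked gene, exceeded Xist in 1 of the 3 Twist cKO UUO libraries (replicate 2) and 2 of the 3 Snail cKO UUO libraries (replicates 1 and 3). The root-mean-square log2 distance between libraries was 0.636 to 0.705 within the Twist cKO UUO group, 0.726 to 0.754 within the Snail cKO UUO group and 0.719 to 0.823 between them, so the ranges within the Snail group and between groups overlapped.

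The targeted genes were examined first. Twist1 (chromosome 12:33957671-33959829, mm10) had 0.378, 0.596 and 0.307 counts per 1e6 counts (CPM, with library sizes scaled by TMM) in Twist cKO UUO kidneys, against 1.49, 1.85 and 1.33 CPM in Snail cKO UUO kidneys. All 3 Twist cKO UUO libraries lay below all 3 Snail cKO UUO libraries. The log2 fold change, Twist cKO UUO over Snail cKO UUO, was -1.86 ± 0.48 (SE, n = 3 each), with an adjusted p of 0.264 in edgeR's quasi-likelihood test, so the difference did not pass the threshold of 0.05. Over the alternatives tried the adjusted p ran between 0.0233, by DESeq2, and 1. Against WT UUO kidneys, which had 2.13, 4.49 and 1.14 CPM, Twist1 fell in Twist cKO UUO kidneys by 2.59 on the log2 scale (edgeR adjusted p = 0.0172).

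Snai1 (chromosome 2:167538195-167542814, mm10) did not separate the groups. It had 2.16, 1.8 and 2.07 CPM in Twist cKO UUO kidneys and 1.98, 1.69 and 2.27 CPM in Snail cKO UUO kidneys. The ranges overlapped, and the log2 difference was 0.02 ± 0.38 with a 95% interval of -0.78 to 0.83 (edgeR adjusted p = 0.999). WT UUO kidneys had 3.20, 3.44 and 2.40 CPM, and Snail cKO UUO minus WT UUO was -0.61 on the log2 scale (edgeR adjusted p = 0.487). Neither comparison therefore gave a difference in Snai1 that passed the test. The labels do not say which exons were floxed, so counts over the whole gene are a limited check of either allele.

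**Figure D1:**
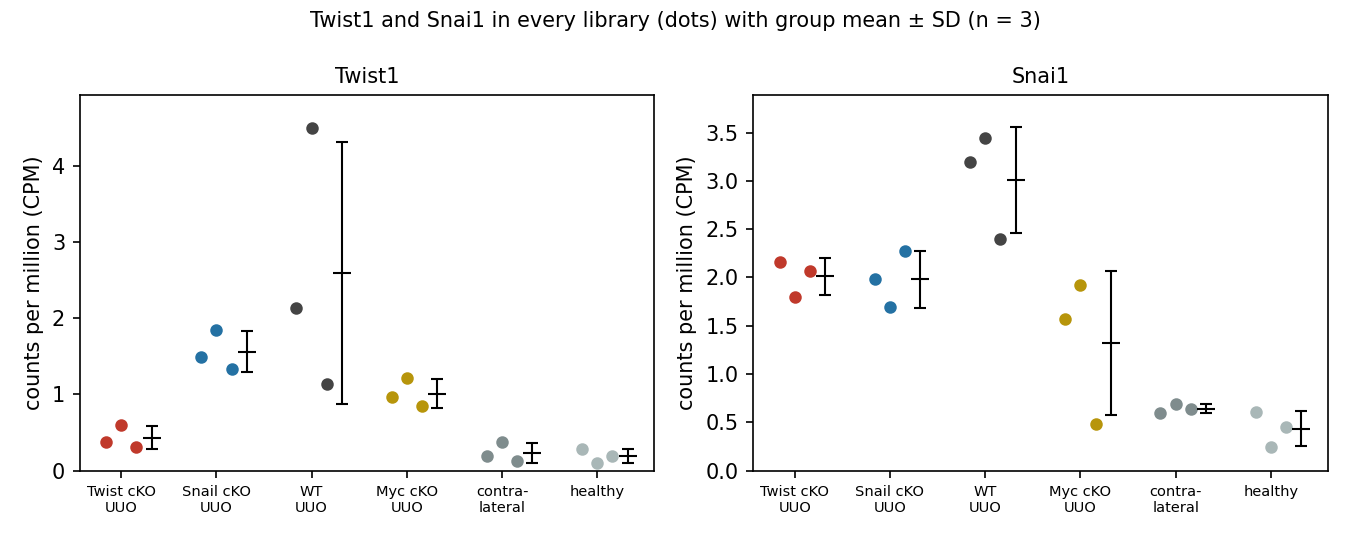
CPM of Twist1 (left) and Snai1 (right) in each library (dots) with the group mean ± SD (n = 3 libraries) for all 6 groups. Twist1 was 0.307 to 0.596 CPM in Twist cKO UUO kidneys and 1.33 to 1.85 CPM in Snail cKO UUO kidneys, while Snai1 overlapped between the 2 groups.

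The remaining transcription factors of mesenchymal transition had smaller log2 differences than Twist1. Twist2, the paralog of Twist1, was 0.3, 0.256 and 0.219 CPM in Twist cKO UUO kidneys and 0.108, 0.322 and 0.345 CPM in Snail cKO UUO kidneys, a log2 difference of 0.00 ± 0.65. Snai2 differed by 0.10 ± 0.28, Zeb1 by -0.08 ± 0.11 and Zeb2 by -0.14 ± 0.14, with the intervals of all 3 spanning 0. Zeb2 had 198, 191 and 203 CPM in Twist cKO UUO kidneys, against 227, 218 and 206 CPM in Snail cKO UUO kidneys, without overlap. Prrx1, a mesenchymal homeobox factor, was 14.3, 15.5 and 12.4 CPM in Twist cKO UUO kidneys, against 21.7, 19.8 and 17.4 CPM in Snail cKO UUO kidneys, lower in every Twist cKO UUO library, at -0.48 ± 0.30 (edgeR adjusted p = 0.889). Of the 11 factors on the list, Twist1 included, 4 were lower in Twist cKO UUO kidneys without overlap, beside 7.54% of all genes. None of the 11 passed the test.

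Across all genes, 36 of 21050 (0.171%) passed the threshold between the 2 knockouts, 18 higher and 18 lower in Twist cKO UUO kidneys (0.0855% in each direction). At an unadjusted p under 0.05 there were 1373 genes (6.52%), and 3192 genes (15.2%) had ranges that did not overlap. DESeq2 called 152 genes, including all 36, and edgeR with only the 2 groups in the fit called 56, including 23 of the 36. Leaving out 1 of the 6 libraries at a time left 14 to 25 genes called: 14, 21 and 20 without Twist cKO UUO replicates 1, 2 and 3, and 18, 25 and 17 without Snail cKO UUO replicates 1, 2 and 3. Of the 36, 12 were called in every one of those 6 fits. Sorted after their values were seen, the 36 fell into 15 genes with a near-identical copy elsewhere in the genome, 9 genes within 20 Mb of Twist1, 3 genes within 20 Mb of Snai1 and 9 others.

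Genes with a near-identical copy were the most numerous of these classes and are described first. A gene counted as copied where at least 95% of bases over at least 80% of its longest transcript matched another, non-overlapping gene in the GENCODE M21 transcripts. Such genes made up 5.96% of all genes tested and 1.2% of them were called. Rps3a1 (chromosome 3) encodes a protein of the small ribosomal subunit, and Rps3a3 (chromosome 13:108670603-108671397) is annotated as a processed pseudogene. The Rps3a1 coding region of 795 bases and Rps3a3 matched at 786 bases. The stretch of 100 bases with the most differences, positions 161 to 260 of the coding region, is shown with the differing bases in capitals (T216C and T260C, Rps3a1 base first, counted from the start codon).
Rps3a1: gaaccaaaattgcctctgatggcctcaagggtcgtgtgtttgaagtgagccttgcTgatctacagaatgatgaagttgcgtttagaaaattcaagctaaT
Rps3a3: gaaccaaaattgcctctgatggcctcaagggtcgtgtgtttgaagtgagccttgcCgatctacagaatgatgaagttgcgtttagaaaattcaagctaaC

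The Rps3a pair was counted in opposite directions. Rps3a3 had 1.21, 1.08 and 1.07 CPM in Twist cKO UUO kidneys, against 38.0, 99.6 and 77.2 CPM in Snail cKO UUO kidneys, with no overlap, a log2 fold change of -6.0 ± 0.40 (edgeR adjusted p = 2.75e-06). Rps3a1 had 208, 205 and 208 CPM in Twist cKO UUO kidneys, against 145, 82.2 and 65.2 CPM in Snail cKO UUO kidneys, a change of 1.08 ± 0.20 (edgeR adjusted p = 0.0492) that stayed called in 1 of the 6 fits that left out a library (adjusted p of 4.85e-05 to 0.231). Within the Snail cKO UUO group the library with the lowest Rps3a3 had the highest Rps3a1. The sum of the pair was 209, 206 and 209 CPM in Twist cKO UUO kidneys and 183, 182 and 142 CPM in Snail cKO UUO kidneys, a ratio of 1.23, where Rps3a1 alone gave a ratio of 2.12. Myc cKO UUO kidneys, of the same labelled strain mix as the Snail line, had 1.57, 1.82 and 1.36 CPM of Rps3a3, close to the 1.36, 1.29 and 0.819 CPM of WT UUO kidneys.

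The glycolytic enzyme Eno1 had 2 called copies that ran the other way. Gm5506 had 17.4, 19.7 and 8.63 CPM in Twist cKO UUO kidneys, against 0.0958, 0.0804 and 0.131 CPM in Snail cKO UUO kidneys, and Gm4735 had 6.95, 8.62 and 3.45 CPM against 0.168, 0.134 and 0.214 CPM in Snail cKO UUO kidneys. Their log2 fold changes were 7.19 ± 0.99 (edgeR adjusted p = 0.00614) and 5.19 ± 0.62 (edgeR adjusted p = 0.00145). Eno1 itself had 92.3, 108 and 112 CPM in Twist cKO UUO kidneys and 150, 114 and 128 CPM in Snail cKO UUO kidneys and was not called. The sum of the 3 was 117, 137 and 124 CPM in Twist cKO UUO kidneys and 150, 114 and 129 CPM in Snail cKO UUO kidneys, which overlapped, at a ratio of 0.961. The Myc cKO UUO libraries were split, with 7.37, 11.8 and 0.269 CPM of Gm5506.

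**Figure D2:**
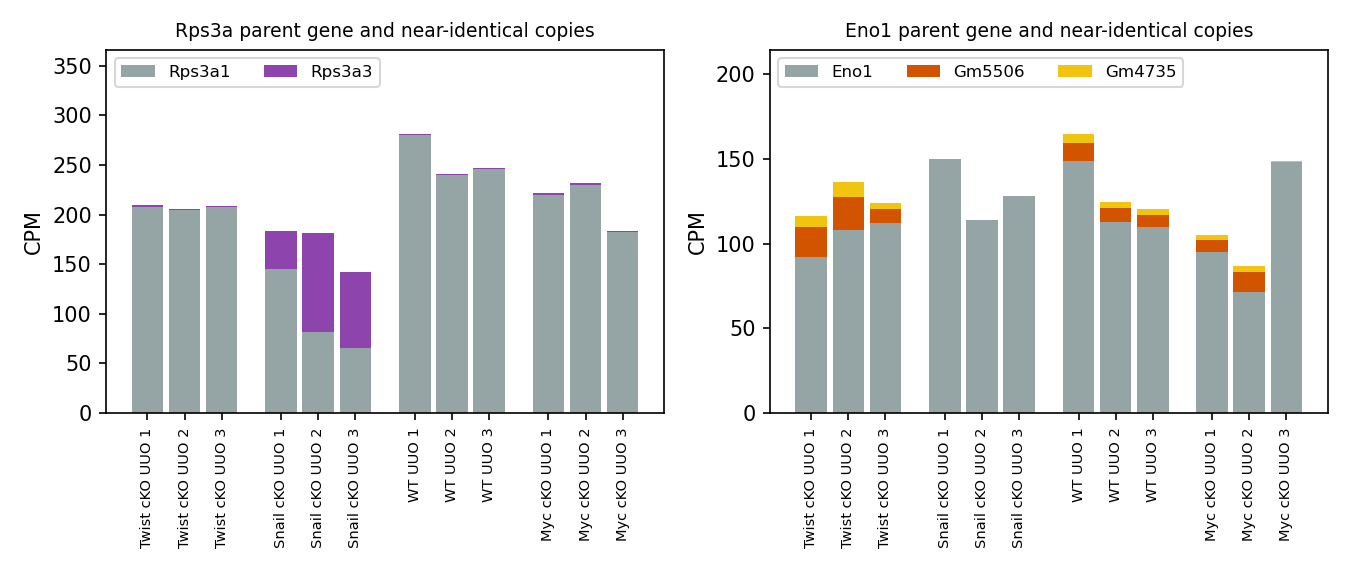
Stacked CPM of a parent gene and its called copies in the 12 libraries of the obstructed groups, for Rps3a1 with Rps3a3 (left) and Eno1 with Gm5506 and Gm4735 (right). The summed Rps3a level was 206 to 209 CPM in Twist cKO UUO kidneys and 142 to 183 CPM in Snail cKO UUO kidneys, and Rps3a3 reached 38.0 to 99.6 CPM only in Snail cKO UUO kidneys among the 4 groups drawn.

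The other families with a called copy did not all do the same. Gm2223, a copy of the initiation factor gene Eif2s3x, had 0.704, 0.389 and 0.555 CPM in Twist cKO UUO kidneys, against 4.26, 5.64 and 3.57 CPM in Snail cKO UUO kidneys, while Eif2s3x alone had a ratio of 1.19 and the sum one of 1.02. Gm10020, a copy of Rpl15, was at 1 count in each Twist cKO UUO library and at 226, 473 and 221 counts in Snail cKO UUO libraries, while Rpl15 alone had a ratio of 0.898 and its sum with Gm10020 and Gm8420 one of 0.862, farther from 1. Gm10443, a copy of Rps28, had 0.261, 0.475 and 0.205 CPM in Twist cKO UUO kidneys, against 0.383, 11.8 and 8.69 CPM in Snail cKO UUO kidneys, and its ranges overlapped. Rps28 alone had a ratio of 1.03 and the sum one of 0.942. Gm10222, a copy of the mitochondrially encoded mt-Nd4l, had 0.522, 0.742 and 0.540 CPM in Twist cKO UUO kidneys, against 0.0719, 0.0670 and 0.0238 CPM in Snail cKO UUO kidneys, and here the sum kept a ratio of 5.14 with no overlap. Gm8420 and Gm2974 had 0 counts in every Twist cKO UUO library, against 14, 20 and 22 counts and 30, 16 and 32 counts in Snail cKO UUO libraries. The sources used here do not say how reads that fit several copies were counted, so single members of these families are uncertain. Each sum given here and above took the parent gene and its called copies only. Other near-identical copies, such as Rps3a2, were left out, so the sums are not totals of whole families.

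Small nuclear RNA genes formed a further group. Gm25360, Gm22973 and Gm25813 were each 191 bases long and matched Rnu2-10, a U2 spliceosomal RNA gene, at 187, 182 and 189 bases. They are shown because they are nearly the same RNA and yet were called in both directions; capitals mark bases that differ from Rnu2-10.
Gm25360: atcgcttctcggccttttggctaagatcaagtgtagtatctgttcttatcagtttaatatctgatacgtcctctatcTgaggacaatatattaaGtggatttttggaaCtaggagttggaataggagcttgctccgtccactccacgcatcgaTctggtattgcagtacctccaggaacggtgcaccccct
Gm22973: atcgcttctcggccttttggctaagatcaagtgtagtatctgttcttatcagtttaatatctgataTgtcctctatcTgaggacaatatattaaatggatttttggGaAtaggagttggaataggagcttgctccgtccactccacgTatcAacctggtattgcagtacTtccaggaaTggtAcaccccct
Gm25813: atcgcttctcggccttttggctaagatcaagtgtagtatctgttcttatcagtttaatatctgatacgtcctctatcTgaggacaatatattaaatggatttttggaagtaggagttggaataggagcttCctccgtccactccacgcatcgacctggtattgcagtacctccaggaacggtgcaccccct
Rnu2-10: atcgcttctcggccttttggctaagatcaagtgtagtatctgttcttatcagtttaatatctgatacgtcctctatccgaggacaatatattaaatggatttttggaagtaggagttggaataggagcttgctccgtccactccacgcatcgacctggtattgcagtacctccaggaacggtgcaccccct

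Gm25360 had 4.19, 5.31 and 3.81 CPM in Twist cKO UUO kidneys, against 25.9, 29.1 and 18.4 CPM in Snail cKO UUO kidneys, with no overlap, at -2.46 ± 0.20 (edgeR adjusted p = 1.98e-05). Gm25813 had 0.196, 0.170 and 0.0292 CPM against 6.24, 7.89 and 4.14 CPM in Snail cKO UUO kidneys. Gm22973 went the other way, with 3.73, 7.42 and 4.56 CPM in Twist cKO UUO kidneys, against 0.263, 0.268 and 0.393 CPM in Snail cKO UUO kidneys, at 4.08 ± 0.42 (edgeR adjusted p = 0.000433). The called gene with the smallest p of all, Gm22513, is a small nuclear RNA gene of 164 bases with 22 near-identical copies. It had 32.9, 75.9 and 55.9 CPM in Twist cKO UUO kidneys, against 0.228, 0.241 and 0.143 CPM in Snail cKO UUO kidneys, at 8.07 ± 0.40 (edgeR adjusted p = 8.38e-08). WT UUO kidneys had 36.1, 19.6 and 35.4 CPM and Myc cKO UUO kidneys 22.9, 26.1 and 18.2 CPM, so the Snail cKO UUO libraries were the group that stood low.

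Genes near the targeted loci formed the second class. Within 20 Mb of Twist1, 9 of 143 genes tested (6.29%) were called, against 0.171% of all genes, and 38.5% had ranges that did not overlap, against 15.2% of all genes. All 9 lay on the side of lower coordinates, with starts between 15606412 and 21417323, and none of the 79 genes within 10 Mb passed the test. On the whole of chromosome 12, 11 of 769 genes (1.43%) were called. With genes that have a near-identical copy taken out of the whole fit the count within 20 Mb was 5, although none of the 9 has such a copy, and leaving out 1 library at a time left 3 to 5: 3 without Twist cKO UUO replicate 1, 5 without Snail cKO UUO replicate 1 and 4 without each of the other 4. Zfp125, 3110053B16Rik and Gm10478 overlap on the same strand, so they are not 3 independent results.

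Of the 9, 6 were lower in Twist cKO UUO kidneys. Zfp125 (chromosome 12:20877084-20921262), annotated as a transcribed pseudogene, had 0.326, 0.329 and 0.190 CPM in Twist cKO UUO kidneys, against 3.19, 3.59 and 3.11 CPM in Snail cKO UUO kidneys, at -3.53 ± 0.44 (edgeR adjusted p = 0.00187). 3110053B16Rik had 0.196, 0.280 and 0.205 CPM against 3.76, 3.28 and 3.42 CPM in Snail cKO UUO kidneys. The groups did not overlap for either gene. The other 4 had few counts: Gm10478 had 2, 4 and 5, Gm4804 had 0, 5 and 3, 1700030C10Rik had 1, 0 and 1 and 5730507C01Rik had 1, 0 and 1 counts in Twist cKO UUO libraries, against 12 to 61 counts in Snail cKO UUO libraries. Across the other groups, Zfp125 was 3.57, 3.73 and 2.36 CPM in WT UUO kidneys, 4.23, 3.56 and 2.55 CPM in Myc cKO UUO kidneys, 2.07, 2.51 and 1.79 CPM in contralateral kidneys and 0.0610, 0.328 and 0.0620 CPM in healthy kidneys. The groups in which every mouse carried floxed Twist alleles, Twist cKO UUO and healthy, were therefore the low ones, and the single floxed mouse of the WT UUO group was the lowest of its 3 without reaching their level; the part of the floxed alleles was not tested.

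Of the 9, 3 were higher in Twist cKO UUO kidneys. Iah1 (chromosome 12:21316389-21323819), an esterase gene, had 28.0, 33.3 and 24.1 CPM in Twist cKO UUO kidneys, against 12.7, 10.1 and 11.7 CPM in Snail cKO UUO kidneys, with no overlap, at 1.3 ± 0.19 (edgeR adjusted p = 0.00695). Greb1 (chromosome 12:16670615-16800886), known as an oestrogen-responsive gene, had 18.9, 16.8 and 15.7 CPM against 2.74, 3.58 and 2.60 CPM in Snail cKO UUO kidneys, at 2.53 ± 0.45 (edgeR adjusted p = 0.0400). Greb1 was called in none of the 6 fits that left out a library, where its adjusted p was 0.0989 to 0.206, although the ranges did not overlap. Gm4419, annotated as antisense, had 1.96, 2.03 and 1.65 CPM against 0.527, 0.657 and 0.607 CPM in Snail cKO UUO kidneys.

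Within 20 Mb of Snai1, 3 of 473 genes (0.634%) were called, against 0.171% of all genes. Ranges did not overlap for 17.3% of the 473, near the 15.2% of all genes. The 3 called genes were all higher in Twist cKO UUO kidneys and lay side by side between 163623272 and 163726158. Serinc3 (chromosome 2:163623272-163645131), which encodes a multipass membrane protein, had 501, 502 and 424 CPM in Twist cKO UUO kidneys, against 236, 271 and 201 CPM in Snail cKO UUO kidneys, at 1.01 ± 0.15 (edgeR adjusted p = 0.00970). WT UUO kidneys had 551, 496 and 520 CPM and Myc cKO UUO kidneys 512, 569 and 664 CPM, so the Snail cKO UUO libraries were the low ones. Pkig, an inhibitor of protein kinase A, had 23.0, 21.0 and 20.1 CPM against 13.7, 15.4 and 13.0 CPM in Snail cKO UUO kidneys, at 0.61 ± 0.10 (edgeR adjusted p = 0.0181). The antisense gene 0610039K10Rik, which overlaps the start of Serinc3, had 1.23, 0.974 and 1.18 CPM against 0.204, 0.201 and 0.167 CPM in Snail cKO UUO kidneys. No source used here states the strand setting of the counting, so its reads cannot be told apart from those of Serinc3. Serinc3 and Pkig were each called in 2 of the 6 fits that left out a library, with adjusted p of 0.0133 to 0.0688 and 0.0191 to 0.108; both lost the call without Twist cKO UUO replicates 1 or 2 or Snail cKO UUO replicates 1 or 3.

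**Figure D3:**
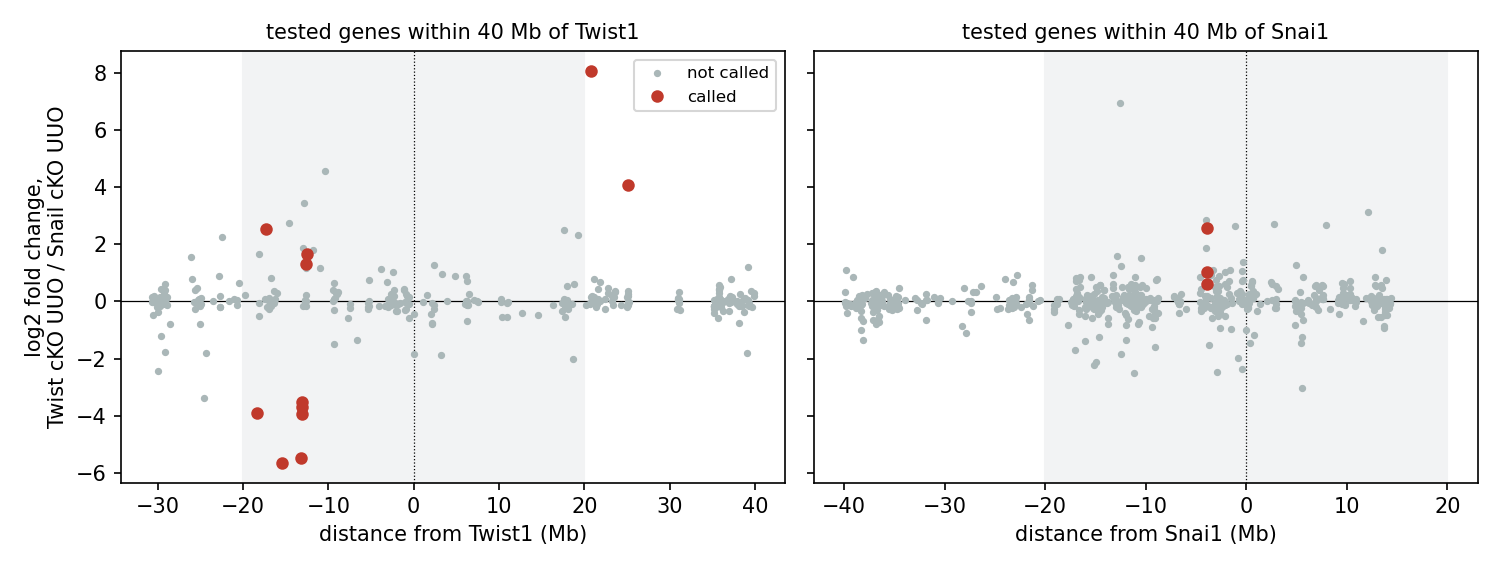
Log2 fold change, Twist cKO UUO over Snail cKO UUO, of each gene tested (dots) against its distance in Mb from Twist1 (left) and Snai1 (right), with called genes in red and the 20 Mb window shaded. The 9 called genes in the Twist1 window lie on one side of it, and the 3 in the Snai1 window lie side by side.

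Of the 9 genes in neither class, 4 were protein-coding genes with moderate expression and known roles. Fggy (chromosome 4:95557507-95926939), a carbohydrate kinase gene, had 51.6, 53.6 and 45.8 CPM in Twist cKO UUO kidneys, against 21.0, 26.2 and 23.8 CPM in Snail cKO UUO kidneys. The groups did not overlap, at 1.09 ± 0.15 (edgeR adjusted p = 0.00459), and the call held in all 6 fits that left out a library. WT UUO kidneys had 18.5, 27.1 and 29.7 CPM, and contralateral kidneys had 120, 100 and 109 CPM, so the Snail cKO UUO libraries overlapped WT UUO and the Twist cKO UUO libraries lay between WT UUO and contralateral ones. Myc cKO UUO kidneys had 51.5, 50.2 and 56.6 CPM.

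Ece1 (chromosome 4:137862237-137965229) encodes endothelin-converting enzyme 1, which makes the vasoconstrictor endothelin from its precursor. It had 129, 125 and 116 CPM in Twist cKO UUO kidneys, against 74.0, 74.8 and 84.6 CPM in Snail cKO UUO kidneys, with no overlap, at 0.66 ± 0.10 (edgeR adjusted p = 0.0110). WT UUO kidneys had 125, 95 and 112 CPM, all above the Snail cKO UUO libraries, and Myc cKO UUO kidneys, which share the strain mix of the Snail line, had 68.3, 72.6 and 61.7 CPM. Ece1 was called in 2 of the 6 fits that left out a library (adjusted p of 0.0222 to 0.0794), losing the call without Twist cKO UUO replicates 1 or 2 or Snail cKO UUO replicates 1 or 2.

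Chn2, a GTPase-activating protein for Rac, was lower in Twist cKO UUO kidneys, with 11.6, 11.5 and 10.5 CPM against 19.4, 18.9 and 17.1 CPM in Snail cKO UUO kidneys, at -0.72 ± 0.11 (edgeR adjusted p = 0.00913). WT UUO kidneys had 10.6, 10.3 and 11.6 CPM, so the Snail cKO UUO libraries stood apart. Chn2 was called in 4 of the 6 fits that left out a library, with an adjusted p of up to 0.0614 without Twist cKO UUO replicate 3 or Snail cKO UUO replicate 1. Prkca, protein kinase C alpha, had 33.3, 34.2 and 36.2 CPM against 27.5, 23.0 and 23.3 CPM in Snail cKO UUO kidneys, at 0.49 ± 0.09 (edgeR adjusted p = 0.0400), and was called in 1 of those 6 fits.

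The remaining 5 were weakly expressed or varied more. Chosen after their values were seen, 5033411D12Rik (Sugct in RefSeq) had 14.4, 20.5 and 11.8 CPM in Twist cKO UUO kidneys, against 1.88, 5.24 and 1.67 CPM in Snail cKO UUO kidneys, and Lsamp, a cell adhesion gene, had 0.743, 0.998 and 0.687 CPM against 0.144, 0.228 and 0.167 CPM in Snail cKO UUO kidneys. Timd4, a receptor for dying cells on macrophages, had 0, 0 and 1 counts in Twist cKO UUO libraries, against 14, 8 and 10 counts in Snail cKO UUO libraries. 1810062G17Rik and Gm17414 were at most 0.419 and 6.79 CPM in the 6 libraries. 5033411D12Rik, Timd4 and Gm17414 were each called in 1 of the 6 fits that left out a library, and Lsamp and 1810062G17Rik in none.

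**Figure D4:**
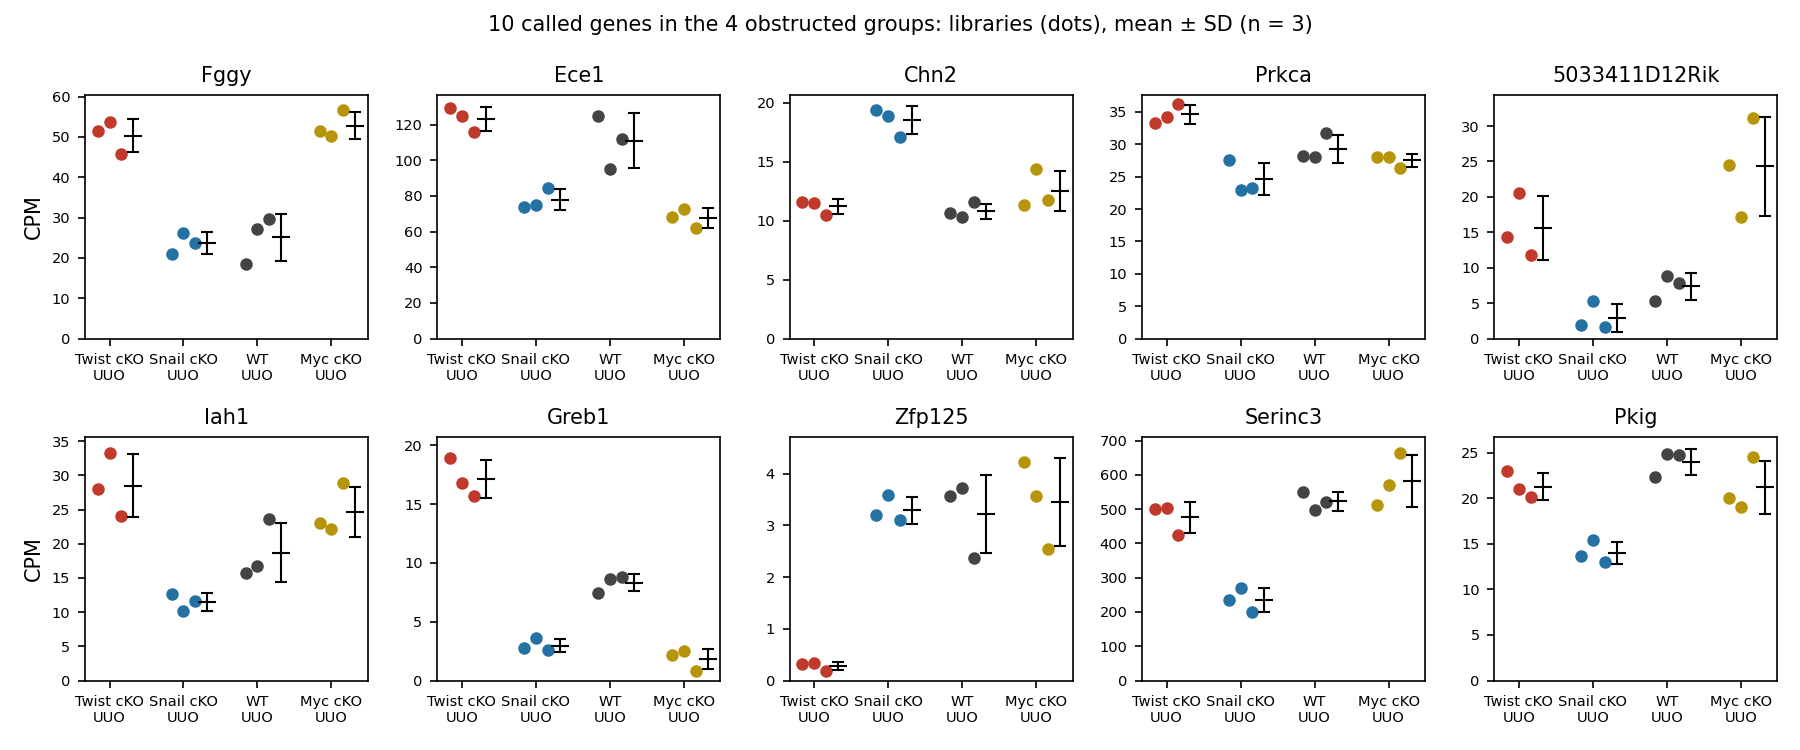
CPM in each library (dots) with mean ± SD (n = 3) for 10 called genes in the 4 obstructed groups; each vertical axis starts at 0. For these genes the Twist cKO UUO and Snail cKO UUO dots do not overlap. For Iah1, Greb1, 5033411D12Rik and Prkca every WT UUO dot lies between the knockouts. For the other genes drawn, WT UUO and Myc cKO UUO kidneys sit with or nearer either group depending on the gene.

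Just short of the threshold, Msh5, Hist1h2bm, Prr15 and Rpl3 had, in edgeR, adjusted p of 0.0503, 0.0503, 0.0712 and 0.0712 and non-overlapping ranges; they were chosen after their values were seen. Rpl3, a large-subunit ribosomal protein, had 218, 180 and 184 CPM in Twist cKO UUO kidneys, against 262, 298 and 272 CPM in Snail cKO UUO kidneys. Prr15, which neighbours Chn2 on chromosome 6, had 18.1, 19.0 and 18.6 CPM against 35.2, 31.9 and 28.5 CPM in Snail cKO UUO kidneys.

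Whether the 2 knockouts differed in how far obstruction-regulated genes departed from WT was examined over sets chosen without either knockout. In WT UUO against contralateral kidneys 3732 genes rose and 2698 fell by at least 2-fold with an edgeR adjusted p under 0.05. Between Twist cKO UUO and Snail cKO UUO the raised set had a median log2 difference of -0.14, with 68.2% of its genes lower, and the lowered set a median of 0.16, with 73.8% higher, beside a median of -0.004 over all genes. The mean log2 CPM of the raised set was 2.06, 1.99 and 2.01 in Twist cKO UUO libraries and 2.07, 2.20 and 2.12 in Snail cKO UUO libraries, which did not overlap by a narrow margin. The mean of the lowered set was 3.27, 3.40 and 3.14 in Twist cKO UUO libraries and 3.14, 2.94 and 3.20 in Snail cKO UUO libraries, which overlapped. Without Snail cKO UUO replicate 2 the medians were -0.08 and 0.09, without Twist cKO UUO replicate 2 they were -0.12 and 0.08, and both kept their sign in every fit that left out a library. Of the single genes in these sets 4 (0.107%) and 6 (0.222%) were called, near the 0.171% of all genes.

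Against WT UUO, 1111 genes (5.28%) were called in Twist cKO UUO kidneys, 2.97% higher and 2.31% lower, and 63 (0.299%) in Snail cKO UUO kidneys. Both counts share the same WT UUO libraries, and the 36 genes above, not the gap between 1111 and 63, are the test of a difference between the knockouts. The first count was 24 without Twist cKO UUO replicate 2 and 13 without WT UUO replicate 1, and between 316 and 1057 without each other library in turn. The second was 141 without Snail cKO UUO replicate 2, 15 and 19 without Snail cKO UUO replicates 3 and 1, and 19, 33 and 30 without WT UUO replicates 1, 2 and 3. Mitochondrial ribosomal RNA took 19.2% to 20.3% of counts in WT UUO libraries, below both knockouts. Against WT UUO the obstruction-raised set had a median of -0.50 in Twist cKO UUO kidneys and -0.35 in Snail cKO UUO kidneys; since WT UUO also chose the set, these are given as a description.

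Gene lists for the cell types and pathways of the obstructed kidney were then read one by one; in 36 of 37 lists no member was called between the 2 knockouts. Among fibroblast, pericyte and contractile genes all 17 tested had a negative log2 difference, with a median of -0.39, and 4 were lower without overlap, beside 7.54% of all genes. Acta2, smooth muscle actin, had 43.0, 56.5 and 44.4 CPM in Twist cKO UUO kidneys, against 76.1, 88.9 and 92 CPM in Snail cKO UUO kidneys, at -0.84 ± 0.49 (edgeR adjusted p = 0.881). The median was -0.64 without Twist cKO UUO replicate 1 and -0.31 without Snail cKO UUO replicate 2, the 2 ends of its leave-one-out range. Against WT UUO, 3 of the 17 were called lower in Twist cKO UUO kidneys, beside 2.31% of all genes, and 1 in Snail cKO UUO kidneys, beside 0.138%. Called or not, 16 of the 17 were negative against WT UUO in Twist cKO UUO kidneys, with a median of -1.43. In Snail cKO UUO kidneys 15 were negative, with a median of -0.85.

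Extracellular matrix genes gave a median of -0.42, with 24 of 25 negative and 10 lower without overlap, beside 7.54% of all genes, and none called. Fbn1, the microfibril protein fibrillin, had 157, 181 and 159 CPM in Twist cKO UUO kidneys, against 234, 254 and 312 CPM in Snail cKO UUO kidneys, at -0.68 ± 0.29 (edgeR adjusted p = 0.723). Bgn, the proteoglycan biglycan, had 290, 315 and 310 CPM against 372, 499 and 354 CPM in Snail cKO UUO kidneys, and Col4a1 of the basement membrane differed by -0.37 ± 0.17. Col1a1, the main fibrillar collagen chain, had 288, 473 and 428 CPM against 476, 376 and 768 CPM in Snail cKO UUO kidneys and overlapped. Against WT UUO, 12 of 25 matrix genes were called lower in Twist cKO UUO kidneys, beside 2.31% of all genes. In Snail cKO UUO kidneys 1 was called lower, beside 0.138%, both against the same WT libraries. Called or not, 24 of the 25 were negative against WT UUO in Twist cKO UUO kidneys, with a median of -1.27. In Snail cKO UUO kidneys 25 of 25 were negative, with a median of -0.96.

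Tubular genes ran the opposite way. Proximal tubule genes had a median of 0.57 with 21 of 24 positive, loop and distal tubule genes 0.71 with 11 of 12 positive, and collecting duct genes 0.46 with 13 of 13 positive. The proximal tubule median was 0.99 without Twist cKO UUO replicate 3, 0.92 without Snail cKO UUO replicate 3 and 0.90 with sex as a covariate. It was 0.39 without Twist cKO UUO replicate 2 and 0.43 without Snail cKO UUO replicate 2. Ranges did not overlap for 4, 8 and 5 genes of these tubular lists in turn, all higher, beside 7.62% of all genes. Slc22a8, an organic anion transporter, had 63.3, 71.3 and 13.3 CPM in Twist cKO UUO kidneys, against 5.26, 6.83 and 11.0 CPM in Snail cKO UUO kidneys, at 2.68 ± 0.67 (edgeR adjusted p = 0.234). Wnk4, a kinase that sets distal salt transport, had 38.5, 48.7 and 54.9 CPM against 27.1, 24.0 and 28.6 CPM in Snail cKO UUO kidneys, at 0.83 ± 0.22 (edgeR adjusted p = 0.286), and Slc26a4, the chloride exchanger pendrin, differed by 1.03 ± 0.30. Summed proximal tubule levels were 5563, 9414 and 3932 CPM in Twist cKO UUO kidneys and 6767, 2805 and 5748 CPM in Snail cKO UUO kidneys, which overlapped. Twist cKO UUO replicate 2, the highest of its group, was the only Twist library with Ddx3y above Xist. Snail cKO UUO replicate 2, the lowest of its group, was the only Snail library with Xist above Ddx3y. Replicate 2 and sex therefore cannot be told apart within these groups. Summed loop and distal tubule levels were 2968, 3719 and 2494 CPM against 2165, 1590 and 1456 CPM in Snail cKO UUO kidneys and did not overlap.

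Energy metabolism genes had smaller differences that rested in part on 1 library. Fatty acid oxidation genes had a median of 0.21 with 18 of 20 positive, citric acid cycle genes 0.22 with 17 of 18 positive, and nuclear oxidative phosphorylation genes 0.14 with 19 of 20 positive. Without Twist cKO UUO replicate 2 these medians were 0.12, 0.08 and -0.02, so the last turned its sign, and it was 0.29 without Twist cKO UUO replicate 3. The fatty acid oxidation median was also 0.10 without Twist cKO UUO replicate 1 and 0.09 without Snail cKO UUO replicate 2. Ogdh, a citric acid cycle enzyme, had 203, 259 and 210 CPM in Twist cKO UUO kidneys, against 184, 147 and 178 CPM in Snail cKO UUO kidneys, at 0.40 ± 0.16 (edgeR adjusted p = 0.683). Glycolysis genes, at 0.04, and Myc with its targets, at -0.04, had medians near 0. Of the 20 genes in the Myc list, 4 were lower without overlap, beside 7.54% of all genes, and none was higher without overlap. None of the 20 was called. Myc itself had 19.6, 17.9 and 29.2 CPM against 24.7, 22.1 and 15.3 CPM in Snail cKO UUO kidneys. The 1 called list member was mt-Nd3, a mitochondrially encoded gene with a near-identical copy on chromosome 1 (Gm28438), at -2.45 ± 0.45 (edgeR adjusted p = 0.0400), which was lower although 14 of the 15 mitochondrially encoded genes were higher; it lost the call in each of the 6 fits that left out a library.

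Genes of endothelial cells, in which the Cre acts, were close between the knockouts. Their median was -0.06 over 25 genes, with 20 of the 25 negative and log2 differences of -0.35 to 0.16. Only 1 of the 25, Cdh5, was lower without overlap, beside 7.54% of all genes, and none was called. Cdh5, whose promoter drives the Cre, had 50.5, 49.1 and 44.7 CPM in Twist cKO UUO kidneys and 55.8, 52.4 and 53.7 CPM in Snail cKO UUO kidneys, at -0.17 with a 95% interval of -0.45 to 0.12. Pecam1, a junctional adhesion molecule, had 70.4, 59.2 and 59.4 CPM against 66.4, 74.7 and 68.2 CPM in Snail cKO UUO kidneys. Among VEGF, angiopoietin and endothelin genes, Angpt2, the destabilising angiopoietin, had 16.5, 18 and 14.2 CPM against 30.9, 28.1 and 17.6 CPM in Snail cKO UUO kidneys, at -0.65 ± 0.20 (edgeR adjusted p = 0.415). Vegfa differed by 0.22 ± 0.16, Hif1a by 0.18 ± 0.19 and the hypoxia response list by a median of -0.06.

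Circadian clock genes had a median of 0.61, with 10 of 17 higher without overlap, beside 7.62% of all genes, and none called. Per2, a repressor within the clock loop, had 40.9, 53.8 and 52.8 CPM in Twist cKO UUO kidneys, against 11.0, 14.8 and 22.5 CPM in Snail cKO UUO kidneys, at 1.61 ± 0.35 (edgeR adjusted p = 0.112). Tef, a clock output factor, had 140, 163 and 138 CPM against 79.1, 72.3 and 132 CPM in Snail cKO UUO kidneys, and Hlf, another output factor of the same family, differed by 1.08 ± 0.30 (edgeR adjusted p = 0.37). Arntl, the activator whose rhythm runs opposite to that of Per2, had 6.25, 3.51 and 4.43 CPM against 14.9, 11.5 and 5.39 CPM in Snail cKO UUO kidneys. Snail cKO UUO replicate 3 was the library nearest the Twist cKO UUO group for Per2, Tef and Arntl, and without it the median was 0.90. Over all 6 fits that left out a library the median of the clock list was 0.52 to 0.90. The labels do not give the hour at which kidneys were taken.

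The canonical E-box CACGTG is bound by clock activators and the E-box CAGGTG by Snail factors. Of the 17 clock genes 13 had a promoter in the RefSeq table (GRCm38.p6, 250 bases before to 50 after the start). On either strand, 4 of the 13 held CACGTG, beside 7.15% of all 32851 promoters, and 4 of the 13 held CAGGTG, beside 20.2% of all. The clock count took 1 promoter per gene, while the share of all promoters counted every entry, so the units differ. Whether any factor binds these sites in the kidney was not tested. The promoters of Tef and Bhlhe41 held both. That of Tef (chromosome 15:81802423-81802722, + strand), whose levels are given above, is shown as an example, with its 1 copy of each in capitals.
Tef promoter: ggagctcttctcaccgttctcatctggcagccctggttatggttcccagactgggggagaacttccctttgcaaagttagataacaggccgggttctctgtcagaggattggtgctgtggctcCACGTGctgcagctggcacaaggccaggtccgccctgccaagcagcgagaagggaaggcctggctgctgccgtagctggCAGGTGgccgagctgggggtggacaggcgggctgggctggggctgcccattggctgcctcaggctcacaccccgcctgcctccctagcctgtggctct

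The macrophage, cell cycle, interferon and B cell medians moved in size when single libraries were left out, but stayed negative in each such fit. Macrophage and monocyte genes had a median of -0.21, which was -0.10 with Twist cKO UUO replicate 3 left out and -0.08 with Snail cKO UUO replicate 2 left out. Cell cycle genes had a median of -0.29, which was -0.19 with Twist cKO UUO replicate 2 left out and -0.11 with Snail cKO UUO replicate 3 left out. Interferon-stimulated genes had a median of -0.27, with 22 of 22 negative and none called. Their summed level was 508, 341 and 382 CPM in Twist cKO UUO kidneys and 363, 586 and 565 CPM in Snail cKO UUO kidneys, which overlapped. That median was -0.51, -0.15 and -0.12 without Snail cKO UUO replicates 1, 2 and 3 and -0.41 without Twist cKO UUO replicate 1. B and plasma cell genes had a median of -0.82, but their summed level was 153, 82.2 and 124 CPM in Twist cKO UUO kidneys and 631, 320 and 86.3 CPM in Snail cKO UUO kidneys, so Snail cKO UUO replicate 3 lay among the Twist libraries; without Snail cKO UUO replicate 2 the median was -0.23, and without Twist cKO UUO replicates 1 and 3 it was -1.57 and -0.47. Erythrocyte genes, by contrast, had a median of 1.77 that was 1.63 to 1.99 without any 1 library, with 6 of 7 higher without overlap, beside 7.62% of all genes, and summed levels of 77.0, 74.3 and 67.6 CPM against 29.4, 21.3 and 23.4 CPM in Snail cKO UUO kidneys; the haemoglobin gene Hbb-bs differed by 1.79 ± 0.56 (edgeR adjusted p = 0.476).

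Markers of tissue around the kidney were uneven. Adipocyte genes had a median of -4.94 with 10 of 10 negative, and their summed level was 35.4, 27.9 and 35.0 CPM in Twist cKO UUO kidneys and 32.0, 42.8 and 163 CPM in Snail cKO UUO kidneys. The value came from Snail cKO UUO replicate 3, without which the median was -0.16. Urothelial genes summed to 108, 49.8 and 82.5 CPM in Twist cKO UUO kidneys and 19.6, 34.4 and 125 CPM in Snail cKO UUO kidneys and overlapped. The part of these tissues in the results above was not tested.

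**Figure D5:**
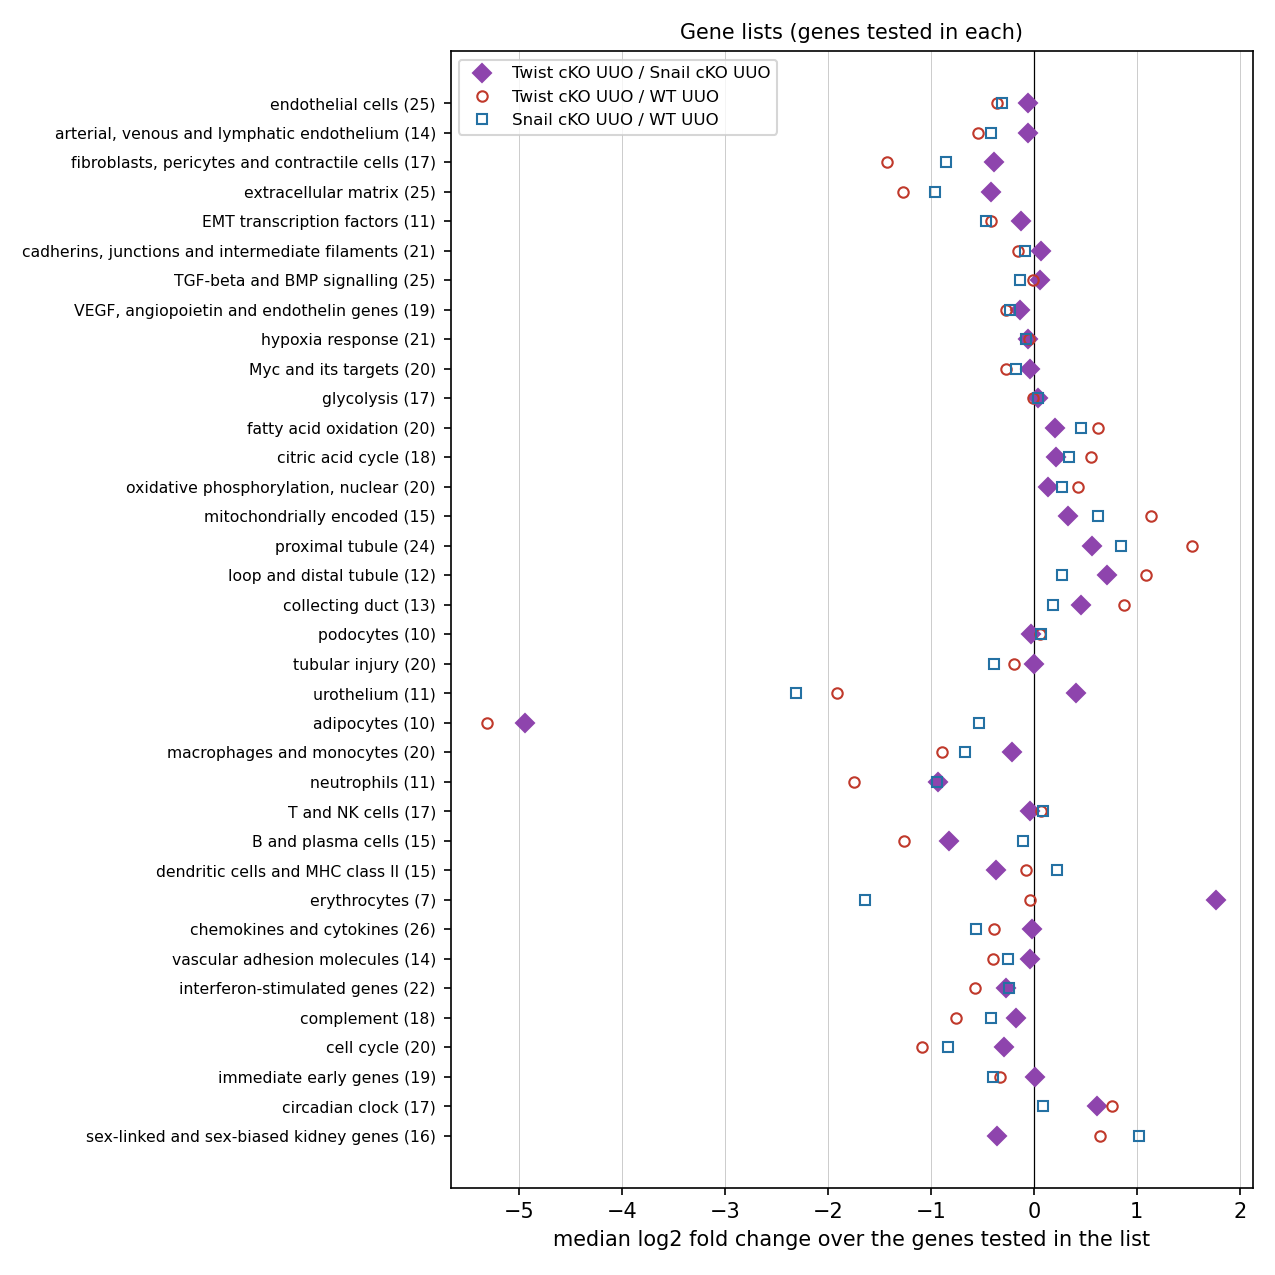
Median log2 fold change of each gene list with 3 or more genes tested (number of genes tested in brackets) for Twist cKO UUO over Snail cKO UUO (diamonds) and for each knockout over WT UUO (circles and squares), which share the WT UUO libraries. Matrix and contractile lists lie below 0 and tubular and clock lists above 0 in the direct comparison, while the endothelial list lies at -0.06.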

How the data were processed

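Whole-kidney RNA-seq of 18 mouse kidneys was used, 6 of them in the comparison of Twist cKO UUO with Snail cKO UUO. The deposited table holds the authors' raw counts per gene symbol (31787 symbols). Per the labels' protocols, libraries were made with a stranded whole-transcriptome kit from TRIzol RNA of a piece of each kidney and read in pairs. The tools listed per the submitters' processing notes are HTSeq, DESeq2 and bcl2fastq 1.8.4, with the build mm10; no source used here names the aligner, annotation or strand setting. The deposited normalised table was not used. Of 24 columns, 18 matched a sample by name, and 6 matched none and were not used.

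Genes kept by filterByExpr (21050) were scaled by TMM and tested in R 4.3.3 with edgeR 4.0.16, quasi-likelihood, in 1 fit over 18 libraries with 12 residual degrees of freedom, two-sided, with Benjamini-Hochberg adjustment over all genes and a threshold of 0.05. SE is the log2 fold change over the square root of F. The smallest exact two-sided permutation p for 3 against 3 is 0.10, so no such test is given. Positions came from GENCODE M21 (97.0% of symbols matched) and copies from blastn 2.17.0. Alternatives were DESeq2 1.42.0, limma 3.58.1 (voom), other scalings and filters, only the 2 groups, a sex covariate, a 2-fold minimum and leaving out each library.

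Named genes were 14 fixed genes, 10 rises and 10 falls, taken by size from called genes whose groups did not overlap, whose mean log2 CPM reached 1 and whose symbol is no clone name (topped up by smallest p), up to 3 members of each of 37 lists by p, and up to 8 genes by p within 20 Mb of Twist1 and of Snai1. The members, the lists and these rules were chosen with earlier results of these data known. Gm genes, members of copied families and others outside the rule were chosen after their values were seen.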

Additional observations from a re-analysis of the deposited data

Results flagged for a closer look

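Of the 36 called genes, 7 lay on opposite sides of WT UUO in the 2 knockouts, with every Twist cKO UUO library on one side of all WT UUO libraries and every Snail cKO UUO library on the other. Over all genes tested 55 did so (0.261%). Only a gene whose knockout ranges do not overlap can do so, as for 3192 genes (15.2%). The called genes were picked for differing between the knockouts, so their share cannot be set against that of all genes. Values are log2 fold changes, Twist cKO UUO over Snail cKO UUO, and the difference is tested by edgeR's comparison of the 2 knockouts.

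Among genes without a near-identical copy these were Iah1 at 1.3, 5033411D12Rik at 2.42, Greb1 at 2.53 and Prkca at 0.49. None of these was called against WT UUO in either knockout (edgeR adjusted p of 0.0657 to 0.204). WT UUO libraries had 15.7, 16.7 and 23.6 CPM of Iah1, between 24.1 to 33.3 CPM in Twist cKO UUO libraries and 10.1 to 12.7 CPM in Snail cKO UUO libraries. For 5033411D12Rik WT UUO libraries had 5.30, 8.87 and 7.88 CPM, between 11.8 to 20.5 CPM in Twist cKO UUO libraries and 1.67 to 5.24 CPM in Snail cKO UUO libraries, and contralateral libraries had 69.4, 72.3 and 49.9 CPM. Iah1 and Greb1 lie within 20 Mb of Twist1.

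Among copied genes these were Gm25360 at -2.46, Gm10222 at 3.44 and Gm10020 at -8.02. Gm10020 had 1 count in each Twist cKO UUO library and 4, 4 and 2 counts in WT UUO libraries, so its fitted value depends on the prior count and its place below WT UUO rests on few counts. Gm10222, which matched mt-Nd4l at 100% of aligned bases, had 40, 61 and 37 counts in Twist cKO UUO libraries, against 6, 5 and 2 counts in Snail cKO UUO libraries and 26, 18 and 24 counts in WT UUO libraries.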

How the results depend on the processing

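No paired analysis was possible because the labels give no replicate numbers, and those used here follow the order of the records. Genes called between the knockouts numbered 36, and 152 by DESeq2, 56 with only the 2 groups in the fit, 12 with a 2-fold minimum and 12 without copied genes (an alternative added after the data were seen); leaving out 1 library gave 14 to 25. Within 20 Mb of Twist1 the 9 became 15 by DESeq2, 5 with a CPM minimum, 2 with a 2-fold minimum, 5 without copied genes, 0 within 10 Mb and 3 to 5 without 1 library; within 20 Mb of Snai1 the 3 became 9 by DESeq2, 1 with a 2-fold minimum and 1 to 3 without 1 library. Twist1 passed by DESeq2 at -1.86. Against WT UUO the Twist cKO UUO count of 1111 became 733 with no count filter, 2451 by DESeq2, 1831 with sex as a covariate, 1 with a 2-fold minimum and 13 to 1057 without 1 library; the Snail cKO UUO count of 63 became 791 by DESeq2, 181 by limma voom, 11 with only those 2 groups, 145 with sex as a covariate, 10 with a 2-fold minimum, 22 without copied genes and 15 to 141 without 1 library. The obstruction-raised median was -0.17 to -0.08 and the lowered median 0.08 to 0.22 without 1 library. Signs near 0 turned for Snai1 (-0.06 with sex as a covariate, -0.08 to 0.14 without 1 library), Twist2 (-0.00033 by DESeq2, -0.36 to 0.28 without 1 library), Havcr1 (0.18 with sex as a covariate), Myc (-0.13 to 0.25 without 1 library) and Snai2 (-0.02 to 0.20 without 1 library), none of them called. The cause of these moves was not tested. All 36 calls remained by DESeq2, 28 by limma voom and 30 with sex as a covariate. With no count filter 28 of the 36 remained, with a CPM minimum 25, and with only the 2 groups in the fit 23. With 3 libraries a group, the interval of a single gene is wide, as for Snai1, and a missed threshold does not show that the groups act alike.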

Other observations

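A few single genes, chosen after their values were seen, lay apart between the knockouts without a call, while the medians of their lists were near 0: -0.17 for complement, -0.02 for chemokines and cytokines, 0.06 for TGF-beta and BMP signalling and 0.07 for cadherins and junctions. The complement component C7 had 38.5, 27.7 and 27.8 CPM in Twist cKO UUO kidneys, against 18.3, 22.6 and 14.6 CPM in Snail cKO UUO kidneys, at 0.76 ± 0.27 (edgeR adjusted p = 0.594). Cxcl12, a chemokine that holds cells near vessels and stroma, had 104, 58.8 and 58.3 CPM against 36.7, 40.3 and 34.7 CPM in Snail cKO UUO kidneys, at 0.99 ± 0.29 (edgeR adjusted p = 0.415). Grem1, a secreted antagonist of bone morphogenetic proteins, had 13.4, 9.87 and 9.29 CPM against 2.44, 7.16 and 1.01 CPM in Snail cKO UUO kidneys. The fibrinogen gene Fgb had 10.1, 6.84 and 14.1 CPM against 4.35, 0.683 and 1.89 CPM in Snail cKO UUO kidneys, and the tubular injury list as a whole had a median of 0.00. Cdh11, a mesenchymal cadherin, had 72.4, 72.8 and 59.8 CPM against 127, 149 and 80.9 CPM in Snail cKO UUO kidneys, at -0.80 ± 0.30 (edgeR adjusted p = 0.654). None of the 5 ranges overlapped between the knockouts, as for 15.2% of all genes.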
